A study of Homo sapiens with 15 samples.

Results

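The loops described here join a coding promoter to a distal anchor and were called from H3K4me3 but not from H3K27ac HiChIP in LNCaP cells. They numbered 144728 of the 505995 different loops of the series. A loop qualified when its anchor pair was listed in the H3K4me3 set alone, when it spanned 10 kb to below 1 Mb, and when exactly 1 of its 1 kb anchors touched a coding promoter, taken as 2.5 kb up- and downstream of the canonical start. The H3K4me3 set held 278491 loops in all, and 68822 of them were listed in the H3K27ac set of 296326 loops too. Of the 241539 promoter-distal loops in this range of length, the H3K4me3-only loops made up 59.9%, the loops of both sets 40789 and the H3K27ac-only loops 56022.

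LNCaP is a prostate cancer cell line that grows in response to androgen. Its cells were kept for 3 days in phenol-red-free RPMI with 10% charcoal-stripped serum and then treated with the androgen dihydrotestosterone (DHT, 10 nM). They were taken at 30 m and at 4, 16 and 72 h, and cells given the ethanol vehicle are the 0 m samples. H3K4me3 HiChIP had 1 sample per time point and H3K27ac HiChIP had 2, so the series held 15 samples of a single line. Each loop came with a single contact value for a mark at a given time. Spread between replicates is therefore unknown, no test between time points was possible, and all intervals are exact 95% intervals for the counting error of read pairs alone.

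In HiChIP, fixed chromatin is ligated in the nucleus and an antibody to a histone mark enriches the ligated fragments, so that a read pair reports contact between distant sites of which at least one bears the mark. H3K4me3 is concentrated at the starts of active and poised genes, whereas H3K27ac marks active enhancers as well as active promoters. Androgen acts in prostate cells mostly through distal enhancers, among them those of kallikrein genes. A contact value depends on the frequency of contact, on the level of the mark and on the share of cells with both, and these cannot be told apart in bulk samples.

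The sequences of the sites at the far end of such loops are shown for 4 promoters to which the results return. For TMPRSS2, KLK3 and MAF, the anchor is that of the loop with the largest gain in H3K4me3 contact at 16 h, and for TOB1 it is that of the strongest loop of 50 kb or more, a choice made after the values were seen. Each line gives 300 bases of GRCh37, plus strand, within the 1 kb anchor and outside annotated exons. The 300 bases were placed on a match of the motifs below, so each window holds a match by choice. Capitals mark the FOXA motif TGTTTAC and the androgen response half-site AGAACA, searched on both strands. The TMPRSS2 window chr21:42852001-42852300 and the KLK3 window chr19:51372701-51373000 lie inside TMPRSS2 and inside KLK2. The MAF window chr16:79417456-79417755 and the TOB1 window chr17:49027001-49027300 lie in no coding gene.
TMPRSS2 distal anchor: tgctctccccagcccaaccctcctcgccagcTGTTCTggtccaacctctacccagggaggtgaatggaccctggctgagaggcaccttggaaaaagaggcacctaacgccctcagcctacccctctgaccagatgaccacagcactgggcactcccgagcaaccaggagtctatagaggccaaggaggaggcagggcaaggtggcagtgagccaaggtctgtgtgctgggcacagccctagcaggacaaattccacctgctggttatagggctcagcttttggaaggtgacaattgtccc
KLK3 distal anchor: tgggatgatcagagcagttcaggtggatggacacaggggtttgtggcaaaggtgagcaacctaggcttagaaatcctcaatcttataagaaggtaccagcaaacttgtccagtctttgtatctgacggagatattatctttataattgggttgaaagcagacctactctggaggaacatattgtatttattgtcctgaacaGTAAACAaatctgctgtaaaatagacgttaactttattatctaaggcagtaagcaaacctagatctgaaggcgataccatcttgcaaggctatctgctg
MAF distal anchor: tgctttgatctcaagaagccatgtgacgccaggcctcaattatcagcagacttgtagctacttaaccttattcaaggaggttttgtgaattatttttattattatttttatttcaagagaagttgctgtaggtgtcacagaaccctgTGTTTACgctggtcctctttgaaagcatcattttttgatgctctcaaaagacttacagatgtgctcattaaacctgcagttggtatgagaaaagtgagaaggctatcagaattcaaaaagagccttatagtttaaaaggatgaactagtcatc
TOB1 distal anchor: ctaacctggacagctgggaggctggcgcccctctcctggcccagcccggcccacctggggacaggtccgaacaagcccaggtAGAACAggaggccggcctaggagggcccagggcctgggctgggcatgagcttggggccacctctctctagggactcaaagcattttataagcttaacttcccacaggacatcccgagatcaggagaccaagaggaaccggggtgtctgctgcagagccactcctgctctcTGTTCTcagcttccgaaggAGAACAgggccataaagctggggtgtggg

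The TOB1 window held 3 half-sites and the TMPRSS2 window 1, and the KLK3 and MAF windows held 1 FOXA motif each. The whole 1 kb anchors held the same numbers. For TMPRSS2, KLK3 and MAF, the anchor with the next largest gain held neither motif. Matches of both motifs are common. Of the 100604 distinct distal anchors of H3K4me3-only loops, 56.0% held the half-site and 14.2% the FOXA motif, against 55.6% and 14.5% of all 210061 anchors of the series. A promoter of the same set is shown as well, since its loops were all of the H3K4me3-only kind. KLHL29, which encodes a kelch-like protein, had 36 of them and no other promoter-distal loop. The 250 bases before its start, chr2:23607800-23608049 on the plus strand of GRCh37, hold 37 CpG dinucleotides (in capitals) and 80.4% G and C.
KLHL29 promoter: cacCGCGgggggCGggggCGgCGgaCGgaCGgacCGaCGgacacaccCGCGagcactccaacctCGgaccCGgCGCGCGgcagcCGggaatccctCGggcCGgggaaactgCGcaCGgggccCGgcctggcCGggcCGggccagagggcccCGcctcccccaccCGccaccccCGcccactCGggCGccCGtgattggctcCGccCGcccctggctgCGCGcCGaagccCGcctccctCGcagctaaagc

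H3K4me3-only loops were longer than the other promoter-distal loops. Their median length was 260 kb (quartiles 115 and 465 kb), against 155 kb for the loops of both sets and 160 kb for the H3K27ac-only loops. Loops of 200 kb or more made up 60.0% of them, but 41.4% and 42.4% of the other classes. Their share of all promoter-distal loops was 42.7% at 10 to 20 kb, 55.0% at 100 to 200 kb and 75.9% at 500 kb to 1 Mb. At the limits of the rule, 1731 loops of 10 kb were inside it and 2093 of 5 kb outside it, with mean H3K4me3 contacts of 8.73 and 15.7. At the upper limit 130 loops of 995 kb were inside and 146 of 1 Mb outside, with means of 0.370 and 0.356.

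**Figure D1:**
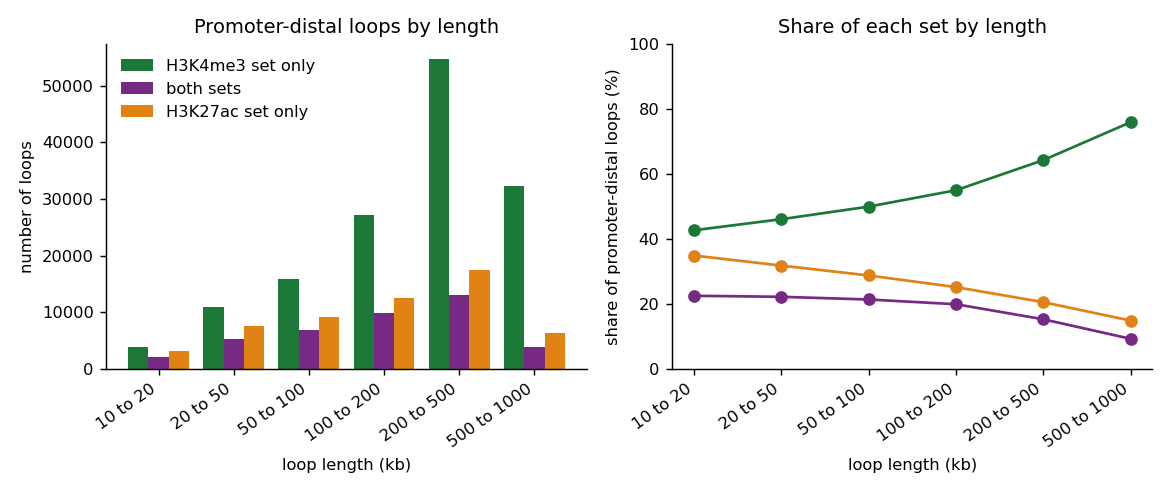
Promoter-distal loops by length in kb (x axis), as numbers of loops (left) and as shares of all promoter-distal loops of that length in percent (right), for loops called in the H3K4me3 set only, in both sets or in the H3K27ac set only. The share of H3K4me3-only loops was higher in each longer class, from 42.7% to 75.9%.

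The contact signal of these loops was low, which limits what a single loop can show. Mean H3K4me3 contact over the 5 time points was 1.20 per loop, with a median of 0.679, and mean H3K27ac contact was 0.512, with a median of 0.249. A loop held a median of 2 to 9 H3K4me3 read pairs per library and 1 H3K27ac read pair. Every loop had an H3K4me3 read pair at some time, and 6704 of them (4.63%) had no H3K27ac read pair at any time. The share without a read pair in a library was 0.173% to 17.1% for H3K4me3 and 27.04% to 39.98% for H3K27ac, in libraries of 2153262 to 10675614 and 2475168 to 4308555 read pairs over all loops. At the depth of the shallowest library of each mark the ranges would be 13.5% to 17.4% and 39.98% to 51.1%, the latter at 16 h.

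H3K4me3 contact was higher than H3K27ac contact in 94.6% of the H3K4me3-only loops. The same held for 70.0% of the loops of both sets and 47.1% of the H3K27ac-only loops. Since the rule used the H3K27ac calls, the lower H3K27ac contact of the class is given as a description, and single loops could still be high, up to a mean of 96.5. At a given length, H3K4me3 contact was below that of the loops of both sets and close to that of the H3K27ac-only loops. At 10 to 20 kb its mean was 7.02 in the H3K4me3-only loops, 6.73 in the H3K27ac-only loops and 9.90 in the loops of both sets. At 100 to 200 kb the means were 1.17, 1.17 and 2.07. H3K27ac contact in the same order was 3.57, 4.72 and 6.71 at 10 to 20 kb, and 0.474, 1.08 and 1.497 at 100 to 200 kb.

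**Figure D2:**
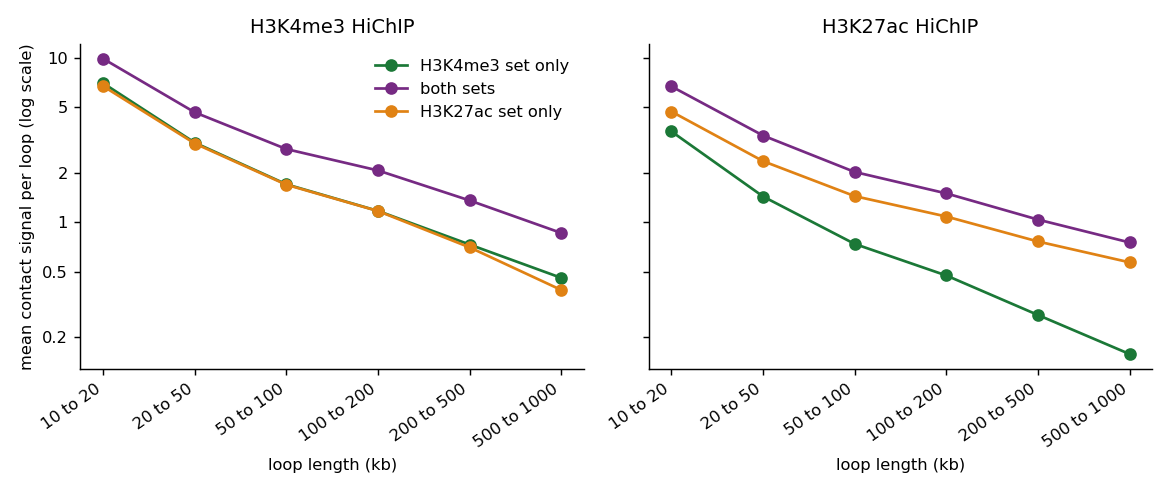
Mean contact signal per loop over the 5 time points (y axis, log scale) by loop length in kb (x axis), for H3K4me3 (left) and H3K27ac (right), in the same 3 classes of promoter-distal loops. In H3K4me3 the H3K4me3-only and the H3K27ac-only loops lie close together below the loops of both sets, and in H3K27ac the H3K4me3-only loops are the lowest in every length class.

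The strongest single loops were all of 10 kb. The highest mean H3K4me3 contact belonged to RGL2, which encodes a Ral guanine nucleotide exchange factor. Its loop from chr6:33267001-33268000 to chr6:33277001-33278000 had H3K4me3 contacts of 53.0, 48.8, 53.4, 57.0 and 36.6 at the successive times from 0 m to 72 h. The value at 72 h was the lowest and the others lay close together. H3K27ac contacts of this loop were 22.6, 29.9, 19.4, 28.2 and 28.2. The zinc finger gene ZNF205 followed with a mean of 45.0, then the promoter shared by SUGP1 and MAU2 with 42.1, that shared by ANAPC2 and SSNA1 with 41.5, and that shared by STX10 and IER2 with 39.6. The remaining 5 were FADS2, a fatty acid desaturase, with 38.9, ING4 with 38.8, KLHL28 and TOGARAM1 with 38.6, PGAM5 with 37.3, and GNB1L and RTL10 with 37.2. Mean H3K27ac contact in these 10 loops ran from 6.80 at ING4 to 36.8 at STX10 and IER2, so that absence from the H3K27ac set did not mean absence of H3K27ac contact.

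Longer loops were weaker. Those of 50 kb or more were ranked apart after the values were seen, and TOB1, which encodes an antiproliferative protein, came first with 85 kb. Its H3K4me3 contacts were 27.1, 38.9, 32.0, 38.5 and 22.3 over the 5 time points, and its H3K27ac contacts were 25.6, 33.8, 26.5, 40.3 and 40.8. Both marks were higher at 16 h than at 0 m, and at 72 h they lay on opposite sides of the 0 m value. The others were GSE1 (55 kb, mean H3K4me3 contact 24.2), PRAC1 and PRAC2, genes named for prostate and colon expression (65 kb, 24.0), the protein disulfide isomerase gene P4HB (120 kb, 23.9) and DPH1 of diphthamide synthesis (120 kb, 22.7). H3K27ac contact exceeded H3K4me3 contact in the loops of TOB1, GSE1 and PRAC1 and PRAC2, with means of 33.4, 29.2 and 38.8, but not in those of P4HB and DPH1, with 8.71 and 4.74.

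At least 1 H3K4me3-only loop was found at 12636 of 19894 coding promoters (63.5%). A promoter with any had a median of 10 (quartiles 4 and 19), 1350 had a single one and 276 had 50 or more. At 8475 of the 12636 promoters (67.1%) they were the majority of the promoter-distal loops. Promoters that share a 5 kb bin share loops, and 25161 loops (17.4%) touched 2 or more promoters, so counts per promoter are not independent. Promoters with at most 4 other coding starts within 500 kb had a median of 15 such loops and those with 40 or more had 5. The share of H3K4me3-only loops among promoter-distal loops was lower in each denser class, with values of 67.2%, 64.3%, 60.1%, 53.5% and 50.3%.

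The promoters with the most H3K4me3-only loops served genes of varied function. MMP16, a membrane-anchored matrix metalloproteinase, had 99, beside 13 loops of both sets and 18 H3K27ac-only loops. PUM3, an RNA-binding protein gene, had 93, as did the promoter shared by VTI1A, a vesicle SNARE, and the palmitoyltransferase gene ZDHHC6. MKKS, which encodes a chaperonin-like protein, had 91 at one annotated start and 81 at another. BOD1L1 had 85, the HSP90 co-chaperone gene CHORDC1 84, C17orf80 and FAM104A 83, GLRX5 of iron-sulfur cluster assembly 80 and LUZP2 78. The loops of these 10 starts were long, with medians between 470 and 595 kb. Between 0 and 7 other coding starts lay within 500 kb of them. The summed H3K4me3 contact over the 99 loops of MMP16 was 98.7, 105, 79.5, 97.4 and 120 over the time points, while their H3K27ac contact was 37.3, 17.5, 34.0, 14.4 and 18.2. H3K27ac was therefore lower at 16 h than at 0 m (log2 change -1.37, interval -1.82 to -0.93) and H3K4me3 was not (-0.02, interval -0.22 to 0.18).

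A further 1442 promoters had H3K4me3-only loops and no other promoter-distal loop. Most loops among these had ALG10 (58), a gene of lipid-linked oligosaccharide synthesis, the ephrin receptor gene EPHA6 (53), the pair IMMP1L and ELP4 (39), the vesicle transport gene BET1 (37) and KLHL29 (36), the promoter printed above. In the sum over the loops of EPHA6, H3K4me3 contact was 20.9, 24.6, 32.6, 34.0 and 27.8, and H3K27ac contact was 6.8, 4.9, 7.5, 2.5 and 3.2. Its changes at 16 h were 0.70 (interval 0.31 to 1.12) and -1.41 (interval -2.55 to -0.34). IMMP1L and ELP4 showed the same opposition, with 0.45 (interval 0.05 to 0.85) and -1.71 (interval -2.87 to -0.64). The H3K4me3 intervals of ALG10, BET1 and KLHL29 included 0. Their H3K27ac changes at 16 h were -0.999 (interval -1.95 to -0.08), -0.15 (-1.05 to 0.78) and 1.25 (-0.02 to 2.71), and that of KLHL29 at 4 h was 1.54 (0.31 to 2.98). All these promoters were chosen by a lack of H3K27ac calls, made with all times merged. Their H3K27ac changes, and the opposition of the marks, are therefore a description only.

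The distal anchors lay mostly away from the gene they contacted. Of the H3K4me3-only loops, 11.9% ended in the body of their own gene, 48.7% in another coding gene and 39.5% outside coding genes. The own gene held 17.4% in the loops of both sets and 14.6% in the H3K27ac-only loops. Compared at 100 to 200 kb, where length is matched, the own-gene shares were 12.6%, 13.5% and 10.2%. In that class the contacted promoter was the coding start nearest to the distal anchor in 18.6%, 16.5% and 12.8%. Wherever they lay, the distal anchors of 5.42% of H3K4me3-only loops overlapped the 2.5 kb around a lncRNA start, against 8.11% for both sets and 6.005% for H3K27ac-only loops. Direction was nearly even, with 51.9% of the loops of single-strand promoters reaching downstream.

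Distal anchors were seldom shared between H3K4me3-only loops. Of 100604 distinct ones, 73584 (73.1%) served a single loop, and 147 served 10 or more. Chromosome 19 held 87 of these 147 but only 5.08% of the loops. The most shared anchor, chr19:58652001-58653000, served 21 loops to promoters of 27 genes, of which 19 were zinc finger genes. The next, chr19:58057001-58058000, served 20 loops to 25 genes, 19 of them zinc finger genes. Mean H3K4me3 contact was 0.707 per loop at the first, with a median length of 580 kb, and 1.98 at the second, with 97.5 kb. Copies of related zinc finger genes can be hard to separate by short reads, so values in these clusters are uncertain.

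The distal anchors did not differ much in sequence from those of the other classes. Median G and C content was 42.0%, against 42.7% for both sets, 43.0% for H3K27ac-only loops and 41.9% for all anchors. The promoter anchors of the same loops had 48.8%. The FOXA motif was found in 14.2%, 15.0% and 14.4% of distal anchors of the H3K4me3-only, both and H3K27ac-only classes, and the half-site in 56.0%, 55.0% and 54.0%. A core of the CTCF motif, CCANNAGNNGGC, was found in 3.26%, 3.99% and 3.49%, and in 3.20% of all anchors. A match is a string of letters and not a bound site.

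Many of the distal anchors were also used in the H3K27ac set. An H3K27ac loop to some other place began at 48385 of them (48.1%), and 80367 of the H3K4me3-only loops (55.5%) ended there. Moreover, 31749 loops (21.9%) had an H3K27ac loop with both anchors within 1 bin. With these counted as loops of both sets, 46.8% of the promoter-distal loops were H3K4me3-only, with a median length of 295 kb. Mean H3K27ac contact was 0.615 in loops to anchors used in the H3K27ac set and 0.383 in the rest, of much the same length (medians 260 and 255 kb). Since H3K27ac calls made this split, the difference is a description.

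Over the DHT course, the summed contact of H3K4me3-only loops moved little, and the comparison with all loops decides its sign. All later times share the 0 m library. Mean H3K4me3 contact was 1.15, 1.18, 1.29, 1.23 and 1.15 per loop from 0 m to 72 h. The log2 changes from 0 m were 0.04 (interval 0.03 to 0.04), 0.16 (0.16 to 0.16), 0.10 (0.09 to 0.10) and -0.00 (-0.01 to 0.00). Over all loops of the series they were 0.02, 0.22, 0.14 and -0.13, so relative to all loops the H3K4me3-only loops changed by 0.02, -0.06, -0.04 and 0.13. The 4 h library held 48.7% of the H3K4me3 read pairs in the listed loops, which were called with all times merged, and the part of this in the 4 h values was not tested.

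Mean H3K27ac contact of the same loops was 0.512, 0.561, 0.502, 0.476 and 0.507. The log2 changes were 0.13 (interval 0.12 to 0.14) at 30 m, -0.03 (-0.04 to -0.02) at 4 h, -0.10 (-0.11 to -0.10) at 16 h and -0.01 (-0.02 to 0.00) at 72 h. All loops changed by 0.09, 0.07, 0.25 and 0.17, which left 0.04, -0.10, -0.35 and -0.18 for the H3K4me3-only loops relative to them. The loops of both sets changed by 0.25 at 16 h and the H3K27ac-only loops by 0.03. Since lack of an H3K27ac call chose the members, their lower H3K27ac values are a description.

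The H3K27ac change at 16 h varied with length and with the distal anchor. It was 0.12 (interval 0.10 to 0.14) at 10 to 20 kb, -0.14 (-0.16 to -0.13) at 50 to 100 kb and -0.23 (-0.25 to -0.21) at 200 to 500 kb. In loops of both sets it lay between 0.18 and 0.38 in the 6 length classes. Relative to the change of 0.25 over all loops, every length class of H3K4me3-only loops was below 0, and the loops of both sets were above 0 only below 50 kb. H3K4me3-only loops to anchors used in the H3K27ac set changed by -0.02 (interval -0.03 to -0.01), and those to other anchors by -0.28 (-0.30 to -0.27). In H3K4me3 the changes of these 2 kinds at 16 h were 0.11 and 0.09. The 2 kinds were told apart by H3K27ac calls made with all times merged, 16 h among them. Their difference in H3K27ac is therefore a description only. The H3K4me3 change at 16 h was 0.05 at 10 to 20 kb and 0.18 at 500 kb to 1 Mb, on either side of the 0.14 of all loops.

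**Figure D3:**
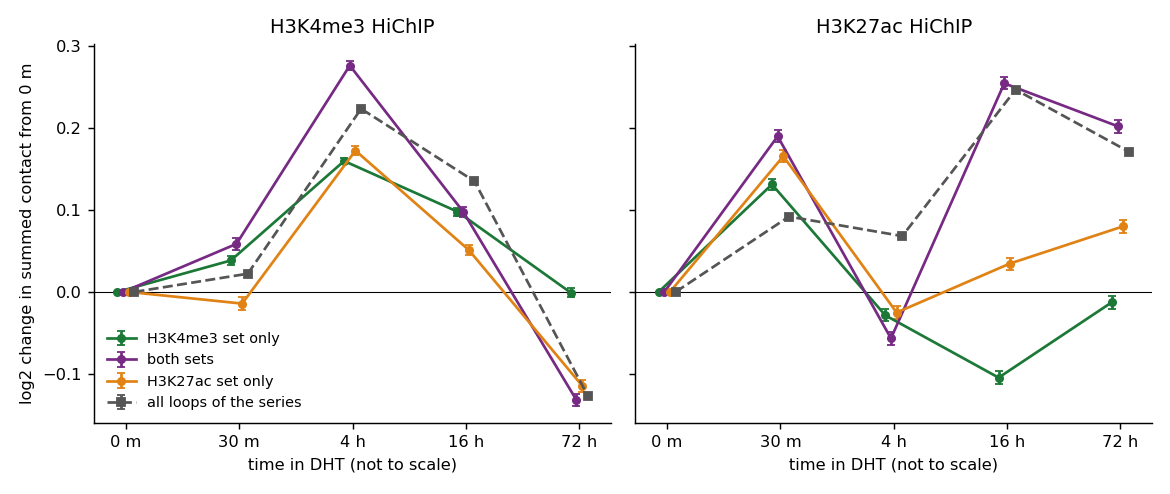
Log2 change in summed contact from 0 m (y axis) by time in DHT (x axis, not to scale) for H3K4me3 (left) and H3K27ac (right), in the 3 classes of promoter-distal loops and in all loops, with 95% counting intervals. H3K4me3-only loops were at 0.16 in H3K4me3 at 4 h and back at 0.00 at 72 h, and at 16 h in H3K27ac they were at -0.10 while the loops of both sets were at 0.25.

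Few single loops had enough read pairs for a change to be read. With at least 20 read pairs over the 2 times, 10552 to 39124 of the 144728 loops could be assessed in H3K4me3 and 3802 to 5977 in H3K27ac. At least 2-fold higher H3K4me3 contact was found in 404 of 10552 (3.83%) at 30 m, where all loops of the series gave 3.15%, and in 5852 of 39124 (14.96%) at 4 h, against 15.2%. At 16 h it was 1136 of 16708 (6.80%), against 6.5%, and at 72 h 427 of 12020 (3.55%), against 2.4%. At least 2-fold lower H3K4me3 contact was found in 3.83%, 3.46%, 2.69% and 4.92% at the 4 times, against 3.79%, 3.36%, 2.21% and 5.86% of all loops. These shares lay near the background, apart from the loops at least 2-fold higher at 72 h.

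In H3K27ac, 846 of 5977 loops (14.2%) were at least 2-fold higher at 30 m, against 10.7% of all loops, and 249 of 4524 (5.50%) at 4 h, against 7.02%. The shares were 573 of 4436 (12.9%) at 16 h, against 18.3%, and 454 of 3802 (11.9%) at 72 h, against 15.4%. At least 2-fold lower were 2.98%, 4.02%, 6.47% and 6.31%, against 6.02%, 3.02%, 5.9% and 6.61%.

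Changes were clearer when the H3K4me3-only loops of a promoter were summed. At 16 h, 3445 promoters had at least 200 read pairs over the 2 times, and their median log2 change was 0.10 (quartiles -0.05 and 0.25), which is below the 0.14 of all loops. Only 3 were at least 2-fold higher and 0 at least 2-fold lower, and over all promoter-distal loops 5 of 6698 promoters (0.0746%) were at least 2-fold higher. At 4 h, with the deepest library, 6229 promoters passed the same minimum, of which 133 were at least 2-fold higher and 4 at least 2-fold lower. Over all promoter-distal loops 160 of 8678 (1.84%) were higher and 8 (0.0922%) lower at that time.

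TMPRSS2, NDRG1 and KLK3 were these 3, and all are textbook androgen-induced genes. TMPRSS2, a membrane-bound serine protease, had 37 H3K4me3-only loops with a summed H3K4me3 contact of 30.5, 28.0, 29.5, 73.1 and 40.7 over the 5 time points. The 16 h value stood well above the other 4, and the change was 1.26 (interval 0.95 to 1.58). Without loops that had an H3K27ac loop within 1 bin it was 0.84, which is below 2-fold. H3K27ac contact of the same loops was 34.97, 32.0, 33.1, 21.7 and 27.4, which was lowest at 16 h (-0.69, interval -1.09 to -0.30). The loop to the anchor printed above, 25 kb away, had H3K4me3 contacts of 4.23, 3.42, 2.61, 11.8 and 5.77. TMPRSS2 had 5 loops of both sets and 6 H3K27ac-only loops, whose H3K4me3 contact was higher at 16 h as well, by 1.32 (0.95 to 1.71) and 1.49 (0.42 to 2.73).

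KLK3, which encodes prostate-specific antigen, had 6 promoter-distal loops by the exact anchor match used here, all of them H3K4me3-only. This does not mean that the promoter lacks H3K27ac loops, since some of the 6 had an H3K27ac loop within 1 bin. The paper names an upstream enhancer as its dominant loop and draws contact values of both marks. The summed H3K4me3 contact of the 6 loops was 17.8, 19.1, 23.6, 41.8 and 16.5, again highest at 16 h (1.23, interval 0.82 to 1.66, and 2.66 without loops that had an H3K27ac loop within 1 bin). H3K27ac contact was larger than H3K4me3 contact at every time, with 65.2, 62.1, 122, 72.2 and 26.8, and it was highest at 4 h. The loop to the KLK2 anchor printed above had H3K4me3 contacts of 3.38, 4.78, 4.595, 11.6 and 3.57. The promoter has 40 other coding starts within 500 kb.

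NDRG1, a stress-response gene, had 12 such loops with H3K4me3 sums of 14.1, 18.4, 17.2, 33.2 and 28.9 (1.24 at 16 h, interval 0.78 to 1.72). Here H3K27ac was higher too, with 13.2 at 0 m and 24.2 at 16 h (0.87, interval 0.36 to 1.40). NDRG1 alone among the 10 promoters with the largest gains had H3K27ac and H3K4me3 intervals both above 0.

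The transcription factor gene MAF had 76 loops, the most among these 10. Their H3K4me3 sum was 19.2, 28.0, 58.1, 36.1 and 26.7, highest at 4 h, with a change at 16 h of 0.91 (interval 0.51 to 1.34), while H3K27ac was lower (-0.86, interval -1.39 to -0.35). The loop to the printed MAF anchor, 215 kb away, rested on 0 H3K4me3 read pairs at 0 m and 7 at 16 h, so a single loop of this gene shows little. The other promoters with the largest gains included UAP1 of hexosamine synthesis (0.86), PWP1 of ribosome biogenesis (0.85), PRUNE2 (0.84, and 0.52 without loops that had an H3K27ac loop within 1 bin), the pair BRIX1 and RAD1 (0.79), and the metalloprotease gene NRDC (0.79). UAP1 had sums of 30.2, 34.8, 46.0, 54.9 and 37.4, higher than at 0 m at each later time.

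At the other end were 10 promoters with changes of -0.81 to -0.55. They were those of MAF1, a repressor of RNA polymerase III, with SHARPIN, a ubiquitin ligase subunit (-0.81), of CABLES2 (-0.77, and -0.49 without loops near an H3K27ac loop), of the zinc finger gene ZNF250 (-0.71), and of CASKIN2 with the tRNA splicing gene TSEN54 (-0.64). SIVA1 and the palmitoyltransferase gene ZDHHC17 had -0.59 each, the actin-binding protein gene DBNL -0.58, the cap-binding protein gene NCBP3 and the ubiquitin ligase gene HACE1 -0.56 each, and NUBP2 with SPSB3 -0.55. CABLES2 had H3K4me3 sums of 31.9, 16.7, 16.2, 18.8 and 19.2, in which 0 m stood above every later time. The sum of HACE1 was 34.4, 41.7, 46.1, 23.4 and 26.4, so its 16 h value followed a higher one at 4 h. The intervals of all 20 changes in H3K4me3 excluded 0, but these promoters were picked as the extremes of 3445.

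**Figure D4:**
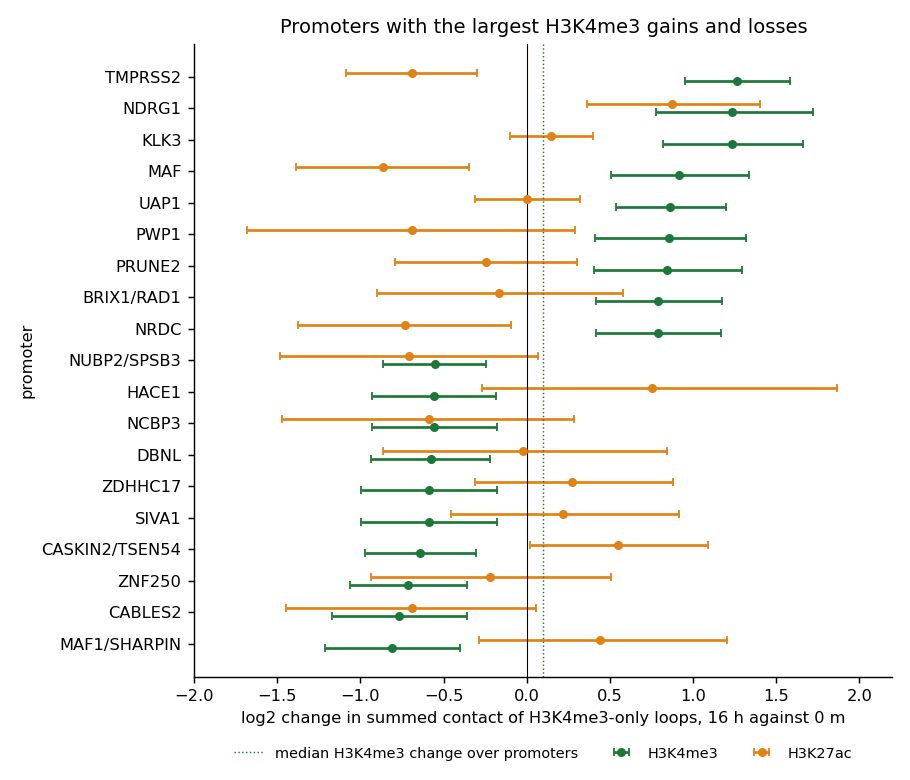
Log2 change in summed contact of H3K4me3-only loops from 0 m to 16 h (x axis) for promoters with the largest gains and the largest losses in H3K4me3 (y axis), in H3K4me3 and in H3K27ac, with 95% counting intervals; the dotted line is the median H3K4me3 change of 0.10 over 3445 promoters. TMPRSS2 was at 1.26 in H3K4me3 and at -0.69 in H3K27ac, and NDRG1 was above 0 in both marks.

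The 10 gene lists place these values in known groups. Among all promoters, 59.9% of promoter-distal loops were H3K4me3-only and 63.1% of 8506 promoters with 50 read pairs had a positive H3K4me3 change at 16 h. All loops together changed by 0.14 in H3K4me3 and by 0.25 in H3K27ac at that time, and a list value between 0 and this shift lies below 0 relative to all loops. In H3K4me3 this applies to cell cycle, developmental and chromosome 19 zinc finger genes, and in H3K27ac to each list with a positive value. The side on which the developmental list lies is not settled. It changed by 0.09 (interval -0.03 to 0.21), and without IRX5 by 0.15 (0.02 to 0.29), and both intervals included the 0.14 of all loops.

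Androgen-induced genes had 517 H3K4me3-only loops among 894 promoter-distal loops (57.8%, interval 54.5 to 61.1) at 28 of 30 promoters. Their summed H3K4me3 contact changed by 0.37 at 4 h and 0.49 (interval 0.42 to 0.56) at 16 h, and 21 of 25 promoters with 50 read pairs were above 0 at 16 h. H3K27ac changed by 0.12 at 16 h. The 3 with the most loops were MAF (76), CENPN, a kinetochore protein gene (40), and IDI1 of isoprenoid synthesis (40). CENPN changed by 0.11 (interval -0.14 to 0.37) and IDI1 by 0.60 (0.28 to 0.92) in H3K4me3 at 16 h. At 72 h the list was at 0.02.

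Prostate secretory and surface genes had a smaller share of such loops, 80 of 201 (39.8%, interval 33.0 to 46.9), at 10 of 15 promoters. With loops that had an H3K27ac loop within 1 bin counted as loops of both sets, it was 14.4%, against 46.8% for all promoters. Their H3K4me3 change at 16 h was 0.81 (interval 0.65 to 0.98), and 0.62 (0.42 to 0.82) without TMPRSS2, which alone gave 37 of the 80 loops and belongs to the androgen-induced list as well. Beside TMPRSS2, the most loops belonged to FOLH1, which encodes prostate-specific membrane antigen (9 loops, 0.22, interval -0.24 to 0.69), and to the serine protease gene HPN (8 loops, 0.35, interval -0.08 to 0.79). Their mean H3K27ac contact of 3.81 was above their mean H3K4me3 contact of 1.74.

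Luminal epithelial transcription factors had 260 H3K4me3-only loops of 528 (49.2%, interval 44.9 to 53.6), and 10 of 11 promoters were above 0 at 16 h, with a change of 0.20 (0.09 to 0.31). Without EHF the change was 0.14 (0.02 to 0.27), and both intervals included the 0.14 of all loops. The median change over the 11 promoters was 0.13. Among the genes of this list TRPS1 had 41 such loops (0.10, interval -0.38 to 0.59) and XBP1 had 40 (-0.11, interval -0.41 to 0.19).

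HOX genes, the positional regulators of the body axis, had the lowest share of the 10 lists, 83 of 300 loops (27.7%, interval 22.7 to 33.1). With loops that had an H3K27ac loop within 1 bin counted as loops of both sets, they were at 19% and secretory genes lower. Chromosome 19 zinc finger genes had the highest share, 2736 of 3852 (71.0%, interval 69.6 to 72.5). Members with many loops were HOXC13 (11) and HOXB9 (9), and ZNF567 (52), ZNF17 (49) and ZNF345 (48). The summed H3K4me3 changes of the lists were -0.10 (interval -0.30 to 0.11) and 0.06 (0.03 to 0.09). HOXC13 was lower in H3K4me3 at 16 h (-0.70, interval -1.25 to -0.14), and the other 4 had intervals that included 0. Developmental regulators other than these had 299 of 535 (55.9%), led by OTX1 (42), GATA6 (41) and IRX5 (36), and a change of 0.09 (interval -0.03 to 0.21).

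Genes used by every cell had shares near or above that of all promoters. Cell cycle and DNA replication genes had 582 of 884 (65.8%, interval 62.6 to 69.0), led by AURKA (39), CDC45 (27) and ORC1 (25). Their H3K4me3 change at 16 h was 0.03 (-0.05 to 0.10) and their H3K27ac change -0.26 (-0.40 to -0.12). Nuclear oxidative phosphorylation genes had 1565 of 2403 (65.1%), led by COX4I1 (65), ATP5PF (54) and ATP5F1C (52), and 63 of 72 promoters were above 0 at 16 h, with a change of 0.19 (0.15 to 0.23). Cytosolic ribosomal protein genes had 1416 of 2421 (58.5%), led by RPL15 (78), RPL38 (52) and RPS24 (52), with changes of 0.22 (0.17 to 0.27) in H3K4me3 and -0.29 (-0.37 to -0.21) in H3K27ac.

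Basal epithelial genes, which mark a cell type that LNCaP does not represent, had H3K4me3-only loops at 2 of 12 promoters. The integrin gene ITGA6 had 14 of the 15 and NGFR the other one, and the list changed by -0.08 (interval -0.68 to 0.53).

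**Figure D5:**
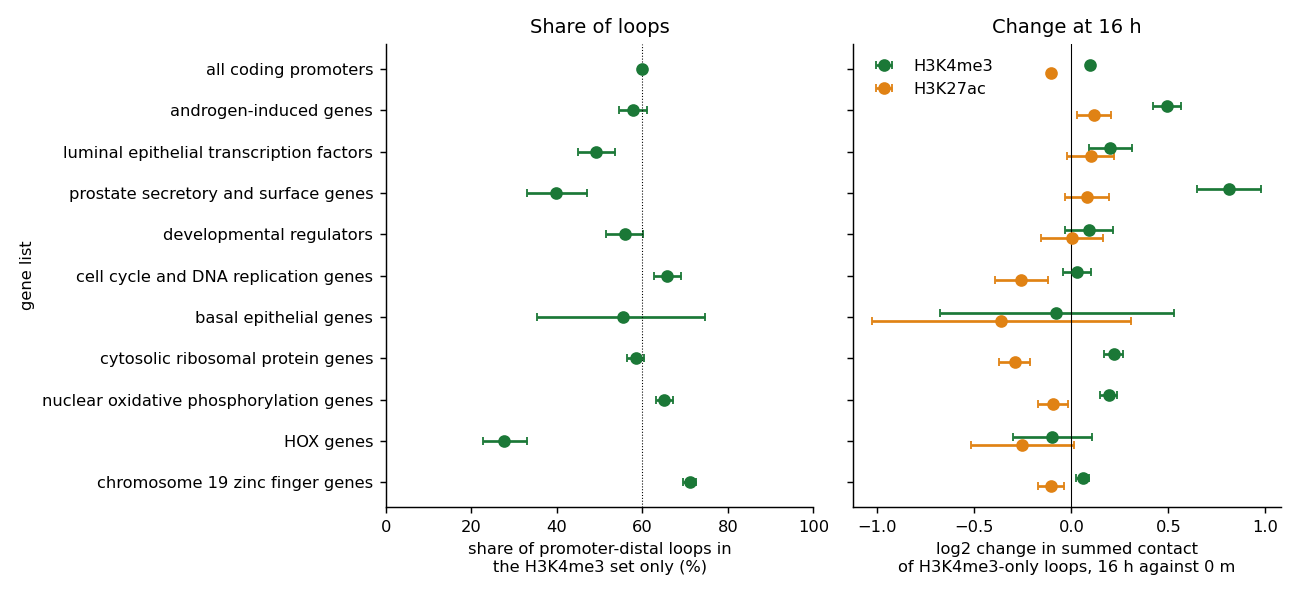
Left, share of promoter-distal loops that were H3K4me3-only in percent (x axis) for all coding promoters and 10 gene lists (y axis), with exact 95% intervals, the dotted line at 59.9%. Right, log2 change in summed contact of these loops from 0 m to 16 h for H3K4me3 and H3K27ac. Prostate secretory and surface genes were at 39.8% and 0.81 in H3K4me3, HOX genes at 27.7% and chromosome 19 zinc finger genes at 71.0%.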

How the data were processed

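HiChIP read pairs of 15 LNCaP samples, 10 of H3K27ac and 5 of H3K4me3, were processed by the authors. They trimmed reads with Trim Galore 0.5.0, mapped them to hg19 with HiC-Pro 3.1.0 and called loops with FitHiChIP (5 kb bins) after merging all time points of each mark. The 10 deposited tables, 1 per mark and time point, hold for each loop of either set a contact signal that the authors scaled by TMM among the time points of a mark. Whether an H3K27ac value rests on 1 or both replicates is not given in the sources used here. All values (100%, tolerance 0.0001) were whole multiples of 1 read pair, so the deposited contact signal was turned back into whole read pairs. With 1 value per time point, a count test such as edgeR could not be run, and no p-value is given.

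Loops were taken once per anchor pair, and their values were identical where a pair was listed in both sets. Promoters were the 2.5 kb on either side of the canonical start of 19894 protein-coding genes in Gencode release 44 lifted to GRCh37, and at least 1 bp of a 1 kb anchor had to overlap. Log2 changes compare summed contact with the vehicle sample, with exact 95% intervals from the binomial split of the 2 read pair counts, and shares have exact Clopper-Pearson intervals. PCR read pairs carry no molecular identifiers, so intervals cover counting error only. Genes were named by rule, namely the 10 promoters with the most such loops, the 10 strongest loops, the 10 promoters with the largest gain and the 10 with the largest loss in H3K4me3 at 16 h among those with 200 read pairs, the 5 leading promoters without other promoter-distal loops, and the 3 genes with the most loops in each list. A few genes that the rule picked are not reported here. The loops and the gene lists were chosen with earlier results of these data known. The interval step was run on simulated counts with counting error only, which is the error it assumes. This checks the calculation and cannot show whether the real spread is larger. Recovery of read pairs was checked only by the whole multiples given above. Alternatives varied the promoter window, the overlap, the scaling, the length, the filter on contact and the weight of promoters. Python 3.11.15, pandas 2.3.3, scipy 1.17.1 and pysam 0.24.0 were used.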

Additional observations from a re-analysis of the deposited data

Results flagged for a closer look

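At 4 h and 16 h of DHT the H3K4me3-only loops moved in opposite directions in the 2 marks. At 4 h the log2 change in summed contact was 0.16 in H3K4me3 and -0.029 in H3K27ac. At 16 h it was 0.10 in H3K4me3 and -0.10 in H3K27ac. The difference between the marks was not tested, since each has 1 value per time point, and scaled to equal totals both marks were below 0 at both times. Both marks were above 0 at 4 h in loops with a mean H3K4me3 contact of at least 1 (0.10 and 0.0032), and at both times in loops of 10 to 20 kb, where H3K27ac changed by 0.09 at 4 h and 0.12 at 16 h and H3K4me3 by 0.15 and 0.05. The opposition at 4 h was not particular to these loops. In H3K4me3 and H3K27ac, loops of both sets changed by 0.28 and -0.06 then, and H3K27ac-only loops by 0.17 and -0.03. At 16 h these other classes were above 0 in both marks, with 0.10 and 0.25, and 0.05 and 0.03.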

How the results depend on the processing

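No paired analysis was possible because the deposited tables hold 1 value per mark and time point, and leaving out a replicate was not possible for the same reason. The number of H3K4me3-only loops stayed within 1.5 times under all 3 definitions tried. Median length was 270 kb with a promoter window of 1 kb and 295 kb with loops that had an H3K27ac loop within 1 bin counted as loops of both sets. The share of promoter-distal loops was 59.7% and 46.8% there, and 58.5% with overlap of the 5 kb bin. Under equal totals the H3K4me3 changes from 30 m to 72 h were 0.016, -0.064, -0.037 and 0.13, reversed at 4 h and 16 h, and the H3K27ac changes were 0.039, -0.097, -0.35 and -0.18. With loops of 20 kb or more, H3K4me3 changed by 0.11 at 16 h and 0.023 at 72 h, and H3K27ac by 0.089, -0.055, -0.155 and -0.050. With a mean H3K4me3 contact of at least 1, H3K4me3 changed by 0.049, 0.10, 0.066 and -0.050, and H3K27ac by 0.20, 0.0032 (reversed), -0.035 and 0.031 (reversed). As medians over promoters, H3K4me3 changed by 0.011 at 30 m, 0.12 at 4 h and -0.018 at 72 h, and H3K27ac by -0.015 at 4 h, -0.18 at 16 h and -0.034 at 72 h. Without loops near an H3K27ac loop, H3K4me3 changed by 0.044 at 72 h, and H3K27ac by 0.11 at 30 m, -0.23 at 16 h and -0.059 at 72 h. With at least 40 read pairs, 3183, 15062, 5475 and 3571 loops could be assessed in H3K4me3 at the 4 times. Of these 27, 1418, 131 and 24 were at least 2-fold higher (0.848, 9.41, 2.39 and 0.672%, against 0.780, 10.9, 2.44 and 0.395% of all loops), and 37, 196, 45 and 81 lower (1.16, 1.30, 0.822 and 2.27%, against 0.969, 1.44, 0.632 and 3.37%). In H3K27ac 193, 32, 187 and 116 of 1790, 1200, 1314 and 1044 were higher (10.8, 2.67, 14.2 and 11.1%, against 9.46, 4.12, 23.3 and 18.3%), and 26, 10, 28 and 29 lower (1.45, 0.833, 2.13 and 2.78%, against 3.13, 0.602, 2.03 and 3.00%). With loops near an H3K27ac loop counted as loops of both sets, the share was 39.04% for androgen-induced genes, 33.1% for luminal epithelial transcription factors, 14.4% for prostate secretory and surface genes, 41.3% for developmental regulators, 54.9% for cell cycle and DNA replication genes, 25.9% for basal epithelial genes, 44.9% for cytosolic ribosomal protein genes, 53.6% for nuclear oxidative phosphorylation genes, 19% for HOX genes and 62.6% for chromosome 19 zinc finger genes. The 20 largest promoter changes kept their sign in all 60 values under equal totals, the longer minimum length and the stricter membership, but under the last TMPRSS2 changed by 0.84 in place of 1.26, no longer 2-fold, KLK3 by 2.66 in place of 1.23, PRUNE2 by 0.52 in place of 0.84 and CABLES2 by -0.49 in place of -0.77. Leaving out 1 gene from each list at 16 h, an alternative chosen after seeing the data, turned the sign of the basal epithelial value alone (-0.08, and 0.03 without NGFR), and both intervals included 0. Without IRX5 the developmental interval no longer included 0. The causes of these shifts were not tested. Depth limits single loops, most of which hold under 10 read pairs per library, and the H3K4me3 4 h library is the deepest.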
